A study of Mus musculus with 13 samples.

Results

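The Hippo pathway genes are 10 mouse genes whose nearby changes in 5-hydroxymethylcytosine (5hmC) were read from 3 tables of regions of knee cartilage DNA. They are the kinases Stk3, Stk4, Lats1 and Lats2, the coactivators Yap1 and Wwtr1, and the transcription factors Tead1, Tead2, Tead3 and Tead4. A region was taken as a member when the deposited table named one of these genes as its nearest gene. That gave 99 regions of the 181833 listed. By comparison, they were 18 of 43378 regions in WT DMM against WT sham, 33 of 65969 in MUT DMM against WT DMM and 48 of 72486 in MUT DMM against WT sham. Of the 99, 84 lay inside the bounds of their gene in RefSeq and 15 outside, and 3 overlapped the promoter window of a RefSeq transcript of their gene. No such window was found for Stk3, Tead1 and Tead4, so their 22, 19 and 6 regions could not be scored for promoter overlap.

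All mice were male, of the mixed strain B6;129S4, and were sampled 6 weeks after surgery. MUT DMM mice were labelled TET-/- in one place, while the mutant was labelled TET1 in another. They had surgery to destabilise the medial meniscus (DMM), in which, per the labels' protocol, that meniscus was taken out. WT DMM mice were TET1+/+ and had the same surgery, and WT sham mice were TET1+/+ with the joint opened only. The protocol places the control on the opposite leg, and it gives the age as 4 to 6 months where the design text gives 3 to 4 months. The sources used here do not say how the mutant allele was made. The labels also list MUT sham mice and a background control made without glucosyltransferase, which are not analysed here, so no background was subtracted and genotype without DMM was not compared. 5hmC, the product of TET enzymes, was read at CCGG sites by reduced representation hydroxymethylation profiling. In that method glucose on 5hmC keeps MspI from cutting, so that only protected fragments are amplified and sequenced. DNA came from whole pieces of cartilage, in which a change in the kinds of cell present and a change in 5hmC per cell cannot be told apart.

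In mammals, the kinases STK3 and STK4 (also MST2 and MST1) phosphorylate and activate LATS1 and LATS2, which phosphorylate YAP1 and its relative TAZ, encoded by Wwtr1. Phosphorylated YAP1 and TAZ are held in the cytoplasm or degraded. Unphosphorylated, they enter the nucleus and bind the DNA-binding TEAD factors to switch on genes of growth and matrix, and in mouse chondrocytes YAP1 is known to act on proliferation and maturation. 5hmC is found mostly within active genes and at enhancers, and its level at a gene is not the gene's expression.

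Among the genes with a promoter window, a pair of listed regions lay over the main start of a kinase gene. The promoter windows of both genes are shown because their CCGG sites are what the assay can read there. Each window holds 300 bases around the transcript start (RefSeq, GRCm38.p6, the coordinates of mm10). Capitals mark CCGG, a palindrome that reads the same on both strands.
Stk4, chr2:164073888-164074187, plus strand: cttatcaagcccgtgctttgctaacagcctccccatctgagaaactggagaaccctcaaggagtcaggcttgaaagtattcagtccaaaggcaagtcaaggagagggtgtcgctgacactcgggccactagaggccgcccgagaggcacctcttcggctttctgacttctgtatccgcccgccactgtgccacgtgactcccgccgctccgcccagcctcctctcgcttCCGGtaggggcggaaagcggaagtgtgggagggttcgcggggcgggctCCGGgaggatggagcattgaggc
Lats2, chr14:57746074-57746373, minus strand: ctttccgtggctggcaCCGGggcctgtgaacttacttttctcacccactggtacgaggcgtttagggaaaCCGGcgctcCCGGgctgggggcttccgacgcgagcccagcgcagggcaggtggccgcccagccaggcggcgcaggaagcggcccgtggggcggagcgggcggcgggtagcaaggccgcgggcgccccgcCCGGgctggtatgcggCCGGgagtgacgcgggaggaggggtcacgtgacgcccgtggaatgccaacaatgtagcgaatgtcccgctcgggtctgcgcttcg
The Stk4 window held 2 CCGG sites, both inside a region that was lower in WT DMM than in WT sham. The Lats2 window held 5, of which 2 were inside a region with a higher MUT DMM than WT DMM level. CCGG occurred in 52.8% of the 32851 RefSeq promoter windows of this length, so its presence is common. RefSeq windows were found for 7 of the 10 genes, all but Stk3, Tead1 and Tead4.

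Levels are normalized read counts per region, comparable within a table only. WT DMM and WT sham had 3 libraries each, named here by their place in the deposited cell since the columns carry no replicate number. A pair of the 3 MUT DMM entries was identical in every region and was counted once, which left a deeper and a shallower MUT DMM library, given in that order throughout. Library values of the other groups follow the deposited order. Of the WT DMM libraries, the one listed first was nearly empty. In the regions of the comparison with WT sham it held 4726 reads, where the other 5 libraries had 436852 to 2187392. In MUT DMM against WT DMM it had 52972, against 407929 to 5889464 in the others, and in MUT DMM against WT sham the libraries had 302082 to 7860851. A read of the near-empty library was worth 15.7 normalized counts in the first of these comparisons and 9.56 in the second. A read of the shallower MUT DMM library was worth 3.55 against WT DMM and 9.45 against WT sham. Where a library is given at 0, 3 of its reads are taken as the limit that a count of 0 allows, for counting error only. The tables list only regions with a window p of at most 0.0001, so a gene without a region is a gene with no listed change. Exact two-sided permutation tests over these libraries cannot go below p = 0.1.

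**Figure D1:**
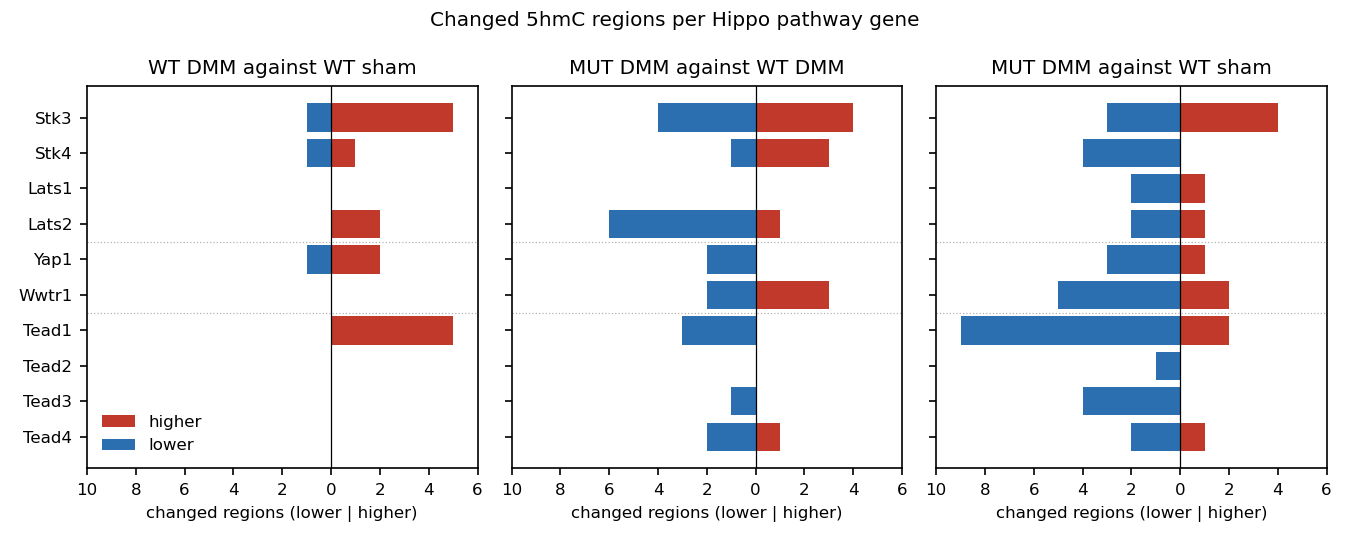
Changed regions per gene (authors' adjusted p under 0.05) in the 3 comparisons, with bars to the right for regions higher in the first-named group and bars to the left for lower ones. In WT DMM against WT sham 15 regions were higher and 3 lower, in MUT DMM against WT DMM 12 and 21, and in MUT DMM against WT sham 12 and 35.

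The first comparison asks how DMM surgery relates to 5hmC in wild-type cartilage. In WT DMM against WT sham, 5 of the 10 genes had listed regions: Stk3, Stk4, Lats2, Yap1 and Tead1. All 18 regions passed the authors' threshold, as did 99.7% of the table. Of them, 15 (83.3%) were higher in WT DMM, beside 93.2% of all regions, and 3 (16.7%) were lower, beside 6.53%. Kinase genes had 8 higher and 2 lower regions, the coactivator Yap1 had 2 and 1, and Tead1 had 5 and 0. Lats1, Wwtr1, Tead2, Tead3 and Tead4 had none. The median log2 ratio of means with 1 added was 1.11 over the higher member regions and 1.15 over all higher regions. Over the 3 lower members it was -3.19, and over all lower regions -0.83. At the lower Stk3 and Yap1 regions the first sham library carried the sham level. Levels were low: the sham mean was under 6 normalized counts in 12 of the 15 higher regions. In 13 of these 15 the near-empty library was at 0, and a 0 there allows up to 47.0 normalized counts.

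Of the kinase genes, Lats2 (chromosome 14, 57689662 to 57746212) had the only member region of this comparison in which every WT DMM library lay above every sham library. At 57726781 to 57727080, WT DMM had 31.4, 24.0 and 43.7 normalized counts, against 10.6, 18.6 and 12.1 in WT sham (adjusted p 0.00354 in the authors' deposited table). The means were 33.0 ± 9.97 (SD, n = 3) in WT DMM and 13.8 ± 4.26 (n = 3) in WT sham, a 2.40-fold difference larger than either SD. Behind them were 2, 18 and 42 reads in WT DMM and 33, 26 and 71 in WT sham. The region from 57767181 to 57767400 had 0, 6.67 and 8.33 normalized counts in WT DMM and 2.24, 2.86 and 1.37 in WT sham (adjusted p 0.00453 in the authors' deposited table). That region lay beyond the gene's upper bound, and its higher level came from the second and the third WT DMM libraries, while the first was at 0.

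Stk3 (chromosome 15, 34875499 to 35155882) encodes MST2 and had 5 higher regions and 1 lower. The best covered was inside the gene. From 34993481 to 34993720, the levels were 31.4, 103 and 133 normalized counts in WT DMM and 72.4, 63.0 and 62.2 in WT sham (adjusted p 0.000666 in the authors' deposited table). Its means were 89.1 ± 52.3 (SD, n = 3) in WT DMM and 65.9 ± 5.69 (n = 3) in WT sham, so the 1.35-fold difference was within the SD of WT DMM. The second and the third WT DMM libraries were above all sham libraries and the first, with 2 reads, was below. At 34922681 to 34923040, WT DMM had 0, 9.34 and 24.0 normalized counts, against 4.16, 7.87 and 4.10 in WT sham. The region from 34955381 to 34955760 had 0, 13.3 and 15.6 normalized counts in WT DMM and 5.77, 6.44 and 2.91 in WT sham. From 35152821 to 35153160, the levels were 0, 10.7 and 17.7 normalized counts in WT DMM and 4.48, 5.01 and 1.71 in WT sham. In these 3 the near-empty library was the lowest of all 6 and the other WT DMM libraries were above sham. At 35136601 to 35136880, WT DMM had 0, 2.67 and 16.7 normalized counts, against 1.92, 2.86 and 1.88 in WT sham. There only the third WT DMM library stood above sham. Without that library the WT DMM mean at 35136601 was 1.34 against 2.22 in sham, and at 34922681 it was 4.67 against 5.38, both turned to lower. At 35152821 it was 5.34 without it, against 3.73 in sham.

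The lower Stk3 region had its sham level mainly from a single library. The region from 35138541 to 35138800 had 0, 1.33 and 1.04 normalized counts in WT DMM and 46.5, 5.01 and 2.39 in WT sham (adjusted p 0.00212 in the authors' deposited table). The sham reads were 145, 7 and 14, and the WT DMM reads 0, 1 and 1. All WT DMM libraries were below all sham libraries. The mean was 0.79 ± 0.70 (SD, n = 3) in WT DMM and 18.0 ± 24.7 (n = 3) in WT sham, and 3.7 in sham without its first library.

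Stk4 (chromosome 2, 164074113 to 164155524), which encodes MST1, had a lower region over its start and a higher one 13.3 kb inside the gene. From 164074081 to 164074300, the levels were 0, 57.4 and 17.7 normalized counts in WT DMM and 43.3, 44.4 and 49.7 in WT sham (adjusted p 0.00153 in the authors' deposited table). This is the region that covers both CCGG sites of the Stk4 window above. The sham libraries were close together, while the WT DMM libraries were spread from 0 to above every sham library. The means of 25.0 ± 29.4 in WT DMM and 45.8 ± 3.47 in WT sham (SD, n = 3 each) differed by less than the WT DMM spread. WT DMM minus WT sham was -20.8 normalized counts, and it shrank to -8.25 without the near-empty library (limma adjusted p 0.338). Without the second WT DMM library it was -36.9, with a WT DMM mean of 8.85. At 164087321 to 164087520, WT DMM had 0, 8.0 and 10.4 normalized counts, against 1.60, 3.58 and 1.37 in WT sham (adjusted p 0.000996 in the authors' deposited table). There the second and the third WT DMM libraries were above sham and the first was at 0.

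Yap1 (chromosome 9, 7931999 to 8004638) encodes the coactivator that the kinases restrain. The region from 7979521 to 7979780 had 0, 4.00 and 17.7 normalized counts in WT DMM and 1.92, 2.15 and 1.37 in WT sham (adjusted p 0.000264 in the authors' deposited table). From 8013441 to 8013720, the levels were 0, 9.34 and 10.4 normalized counts in WT DMM and 3.52, 3.58 and 1.88 in WT sham (adjusted p 0.0063 in the authors' deposited table). Both were higher by the second and the third WT DMM libraries with the first at 0, and the one at 8013441 lay beyond the upper gene bound. At 7979521 the WT DMM mean was 2.0 without the WT DMM library listed last, against 1.81 in sham. At 7989501 to 7989720, WT DMM had 0, 0 and 5.21 normalized counts, against 64.1, 2.86 and 5.13 in WT sham (adjusted p 0.00222 in the authors' deposited table). Here the sham reads were 200, 4 and 30, so the first sham library carried the level, and the groups overlapped. Without it the sham mean was 4.00, against 1.74 in WT DMM, and without the third WT DMM library all WT DMM values were 0.

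Tead1 (chromosome 7, 112679356 to 112906784) encodes a TEAD factor and had only higher regions, all in places 134.4 to 215.7 kb from its lower bound. The region from 112813641 to 112813920 had 0, 6.67 and 15.6 normalized counts in WT DMM and 2.56, 4.29 and 1.88 in WT sham (adjusted p 0.00119 in the authors' deposited table). From 112862341 to 112862540, the levels were 0, 6.67 and 9.37 normalized counts in WT DMM and 1.28, 3.58 and 1.37 in WT sham. At 112871801 to 112872000, WT DMM had 0, 6.67 and 21.9 normalized counts, against 5.45, 5.72 and 3.08 in WT sham. In each, the first WT DMM library was at 0 and the other WT DMM libraries were above every sham library. The region from 112876041 to 112876360 had 0, 28.0 and 30.2 normalized counts in WT DMM and 4.48, 11.5 and 4.78 in WT sham. That region had the highest level of the 5, with 0, 21 and 29 reads in WT DMM and 14, 16 and 28 in WT sham. From 112894901 to 112895120, the levels were 0, 2.67 and 13.5 normalized counts in WT DMM and 1.28, 2.15 and 1.71 in WT sham. Without the third WT DMM library, the WT DMM means at 112871801 and 112894901 were 3.34 and 1.34, below the sham means of 4.75 and 1.71. At 112813641 it was 3.34 against 2.91 in sham.

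**Figure D2:**
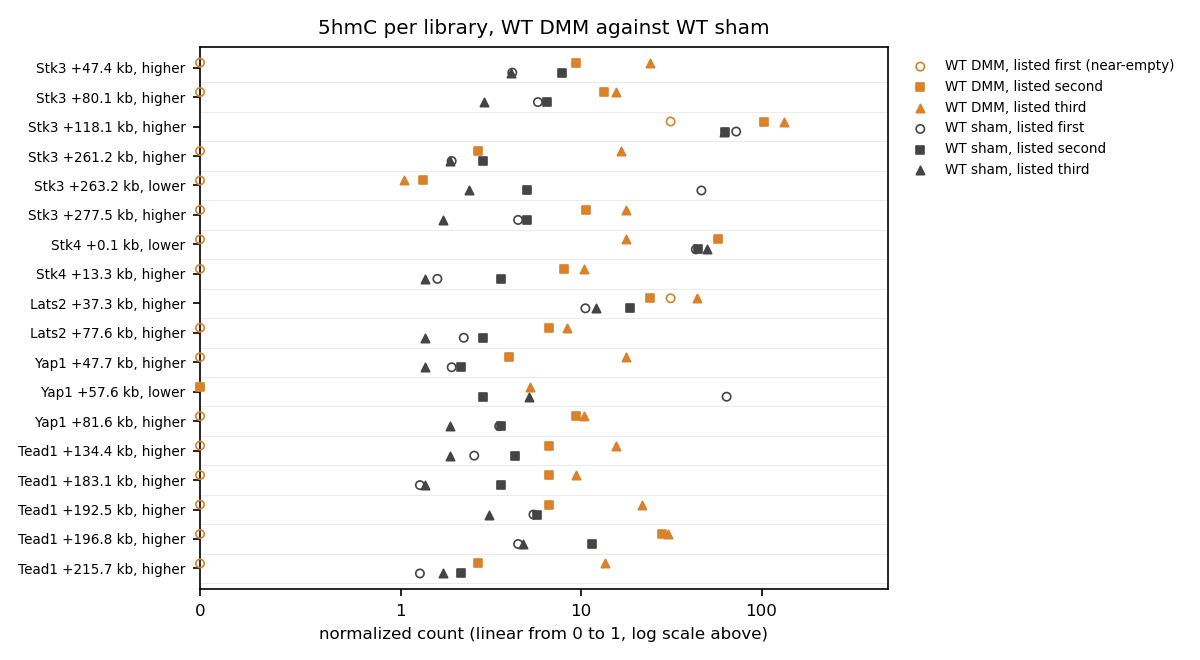
Normalized counts of each library in the 18 regions listed for WT DMM against WT sham, on an axis linear from 0 to 1 and logarithmic above. Rows name the gene, the distance in kb from its lower-coordinate bound and the direction, orange symbols are the 3 WT DMM libraries and dark symbols the 3 WT sham libraries. The near-empty WT DMM library is at 0 in 16 of the 18 rows.

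Libraries of the groups did not overlap in 2 of the 18 regions (1 higher, 1 lower), beside 2.70% of all regions listed, or 0.994% higher and 1.71% lower. Without the near-empty library they were apart in 15, 14 higher and 1 lower, beside 81.5% of all regions, or 79.5% higher and 2.02% lower. The difference of means exceeded the larger SD in 1 region, beside 3.03% of all regions, and 2 reached the smallest permutation p, beside 2.73%. By limma, which weighs the spread between libraries over the whole table, 0 of 18 passed at an adjusted p under 0.05. Of all regions, 0.0161% passed. An unadjusted limma p under 0.05 was found in 0 of 18, beside 361 of all 43378 regions. Without the near-empty library, limma called 13 (12 higher, 1 lower), beside 77.8% of all regions, or 75.9% higher and 1.87% lower. They were 8 at kinase genes, 2 at Yap1 and 3 at Tead1.

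The second comparison asks how 5hmC after DMM differs between mutant and wild-type mice. In MUT DMM against WT DMM, 8 genes had listed regions, Lats1 and Tead2 having none. All 33 regions passed the authors' threshold, beside 98.9% of the table. Of them, 12 (36.4%) were higher in MUT DMM, beside 34.2% of all regions, and 21 (63.6%) were lower, beside 64.7%, so the members' split was near that of the whole table. Kinase genes had 8 higher and 11 lower regions, the coactivators 3 and 4, and the TEAD factors 1 and 6. The median log2 ratio of means with 1 added was 1.14 over higher members and 1.0 over all higher regions, and -0.83 over lower members and -0.93 over all lower regions. Among WT DMM libraries, the near-empty one was at 0 in 10 of the 12 higher and 13 of the 21 lower regions. The shallower MUT DMM library had 0 or 1 read in 13 of the 21 lower regions.

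Stk3 held the member region of smallest p, higher in MUT DMM. At 35116401 to 35116780, MUT DMM had 24.1 and 32.0 normalized counts, against 9.56, 0 and 2.44 in WT DMM (adjusted p 2.02e-07 in the authors' deposited table). Behind these values were 103 and 9 reads in MUT DMM and 1, 0 and 4 in WT DMM. Both MUT DMM libraries were above all WT DMM libraries. The means were 28.1 ± 5.58 (SD, n = 2) in MUT DMM, against 4.00 ± 4.97 (n = 3) in WT DMM, a 7.01-fold difference, and the WT DMM mean was 1.22 without the near-empty library.

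The next 3 Stk3 regions lay side by side just above it, were better covered and were also higher. The region from 35116821 to 35117060 had 71.4 and 74.6 normalized counts in MUT DMM and 0, 68.5 and 54.2 in WT DMM (adjusted p 0.000298 in the authors' deposited table). From 35117081 to 35117460, the levels were 131 and 128 normalized counts in MUT DMM and 28.7, 117 and 54.8 in WT DMM (adjusted p 0.000588 in the authors' deposited table). At 35117501 to 35117880, MUT DMM had 65.5 and 71.1 normalized counts, against 0, 72.2 and 48.1 in WT DMM (adjusted p 0.00046 in the authors' deposited table). In the first 2 both MUT DMM libraries were above all WT DMM libraries, by little over the second. At 35117501 the second WT DMM library was the highest of all. Without that library the WT DMM means were 41.7 at 35117081 and 24.1 at 35117501, against MUT DMM means of 129.6 and 68.3. In limma, the log2 differences (MUT DMM minus WT DMM) at 35116821, 35117081 and 35117501 were 2.24, 1.17 and 2.18. They fell to 0.257, 0.685 and 0.208 without the near-empty library (limma adjusted p 0.436, 0.0683 and 0.531).

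Stk3 also had 4 lower regions, of which that at 35147041 had 54 and 6 reads in MUT DMM and the others 7 to 9 in the deeper library and 1 in the shallower. The region from 35147041 to 35147420 had 12.6 and 21.3 normalized counts in MUT DMM and 0, 25.6 and 43.8 in WT DMM (adjusted p 8.1e-05 in the authors' deposited table). From 34936421 to 34936800, the levels were 2.11 and 3.55 normalized counts in MUT DMM and 28.7, 5.27 and 7.91 in WT DMM. At 34955521 to 34955760, MUT DMM had 1.64 and 3.55 normalized counts, against 0, 6.77 and 9.13 in WT DMM (adjusted p 0.00131 in the authors' deposited table). At 34936421 every MUT DMM value was below every WT DMM value, the highest being 3 reads of the near-empty library. The region from 35124461 to 35124740 had 2.11 and 3.55 normalized counts in MUT DMM and 0, 6.77 and 13.4 in WT DMM. At 34955521, 35124461 and 35147041 the near-empty library was the lowest and the other WT DMM libraries were above both MUT DMM libraries. Without the third WT DMM library the means at 35147041 turned, with MUT DMM at 17 and WT DMM at 12.8, and at 35124461 they were 2.83 and 3.39. At 34936421 the WT DMM mean was 6.59 without the near-empty library.

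Stk4 had 3 higher regions and 1 lower. From 164089901 to 164090140, the levels were 25.0 and 14.2 normalized counts in MUT DMM and 0, 9.78 and 3.65 in WT DMM (adjusted p 0.0016 in the authors' deposited table). Its MUT DMM libraries, with 107 and 4 reads, were both above all WT DMM libraries, with 0, 13 and 6. At 164070301 to 164070540, MUT DMM had 37.7 and 28.4 normalized counts, against 0, 36.1 and 17.7 in WT DMM (adjusted p 0.000275 in the authors' deposited table). The region from 164085081 to 164085280 had 33.0 and 24.9 normalized counts in MUT DMM and 0, 22.6 and 26.8 in WT DMM. In each of these a WT DMM library lay between the MUT DMM values. Without the second WT DMM library the WT DMM mean was 8.83 at 164070301 and 1.83 at 164089901. In limma, the log2 differences (MUT DMM minus WT DMM) at 164070301, 164085081 and 164089901 were 1.93, 1.77 and 2.43. Without the near-empty library, at 0 in each, they fell to 0.359, 0.213 and 1.49 (limma adjusted p 0.411, 0.636 and 0.0993). From 164124181 to 164124480, the levels were 0.94 and 3.55 normalized counts in MUT DMM and 0, 9.78 and 11.6 in WT DMM (adjusted p 1.34e-05 in the authors' deposited table). The MUT DMM level there came from 4 and 1 reads, and the mean was 0.94 without the shallower library, against 7.12 in WT DMM.

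Lats2, a kinase that phosphorylates YAP1 and TAZ, had 1 higher and 6 lower regions. The higher one lay over the main start, covering 167 bases of the window printed above. At 57745641 to 57746240, MUT DMM had 87.0 and 71.1 normalized counts, against 0, 70.0 and 43.2 in WT DMM (adjusted p 0.00102 in the authors' deposited table). The means were 79.1 ± 11.3 (SD, n = 2) in MUT DMM, against 37.7 ± 35.3 (n = 3) in WT DMM. Both MUT DMM libraries were above all WT DMM libraries, although the second WT DMM library came close and the WT DMM mean without it was 21.6. MUT DMM minus WT DMM was 41.3 normalized counts, and 57.5 without that second library. The difference shrank to 22.5 without the near-empty library, which was at 0 (limma adjusted p 0.186). The region from 57754881 to 57755300 had 26.9 and 21.3 normalized counts in MUT DMM and 19.1, 62.4 and 76.7 in WT DMM (adjusted p 2.16e-05 in the authors' deposited table). That lower region lay beyond the upper bound, ahead of the start of this minus-strand gene. Its mean was 24.1 ± 3.95 (SD, n = 2) in MUT DMM, against 52.8 ± 29.99 (n = 3) in WT DMM, and the near-empty library, at 2 reads, was the lowest of all.

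The other lower Lats2 regions varied in coverage. From 57754301 to 57754660, the levels were 16.4 and 14.2 normalized counts in MUT DMM and 19.1, 26.3 and 38.4 in WT DMM. At 57771601 to 57771960, MUT DMM had 7.72 and 7.11 normalized counts, against 19.1, 16.6 and 23.1 in WT DMM. In both, the groups were apart. The region from 57726701 to 57727080 had 7.72 and 14.2 normalized counts in MUT DMM and 19.1, 13.5 and 25.6 in WT DMM (adjusted p 0.000128 in the authors' deposited table). Here the shallower MUT DMM library, with 4 reads, was above the second WT DMM library. From 57747201 to 57747400, the levels were 22.2 and 24.9 normalized counts in MUT DMM and 0, 42.1 and 62.1 in WT DMM. At 57734141 to 57734400, MUT DMM had 0.47 and 3.55 normalized counts, against 0, 4.51 and 6.70 in WT DMM. At 57747201 the deeper and shallower MUT DMM libraries were between the near-empty library and the others, and without the third WT DMM library the means turned, with 23.6 in MUT DMM and 21.1 in WT DMM. At 57734141, beside a second RefSeq start of Lats2, the MUT DMM libraries had 2 and 1 reads. Its MUT DMM mean was 3.55 without the deeper library and 0.47 without the shallower, against 3.74 in WT DMM.

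Of the coactivators, Wwtr1 (chromosome 3, 57455644 to 57575910) had 3 higher and 2 lower regions. The region from 57574881 to 57575100 had 34.9 and 42.7 normalized counts in MUT DMM and 0, 34.6 and 12.2 in WT DMM (adjusted p 0.000433 in the authors' deposited table). From 57575261 to 57575460, the levels were 22.0 and 17.8 normalized counts in MUT DMM and 0, 16.6 and 7.31 in WT DMM (adjusted p 0.00143 in the authors' deposited table). These lay 810 and 450 bases downstream of the outer RefSeq start of Wwtr1. At 57484101 to 57484300, MUT DMM had 34.2 and 42.7 normalized counts, against 0, 21.1 and 25.6 in WT DMM. In all 3 both MUT DMM libraries were above all WT DMM libraries. Without the second WT DMM library the WT DMM means at 57574881 and 57575261 were 6.09 and 3.66, against 38.8 and 19.9 in MUT DMM. In limma, the log2 differences (MUT DMM minus WT DMM) at 57574881, 57575261 and 57484101 were 2.35, 1.98 and 2.23. Without the near-empty library, at 0 in each, they fell to 0.869, 0.783 and 0.694 (limma adjusted p 0.095, 0.267 and 0.164). The region from 57452101 to 57452380 had 0.7 and 3.55 normalized counts in MUT DMM and 0, 5.27 and 4.87 in WT DMM (adjusted p 0.000809 in the authors' deposited table). From 57481161 to 57481360, the levels were 0.94 and 3.55 normalized counts in MUT DMM and 0, 4.51 and 6.09 in WT DMM. In the lower pair the shallower MUT DMM library had 1 read, and without the deeper library the MUT DMM mean of 3.55 was above the WT DMM means of 3.38 and 3.53. Without the shallower one the MUT DMM means were 0.70 and 0.94.

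Yap1 had 2 lower regions in this comparison. At 7910181 to 7910460, MUT DMM had 0.94 and 3.55 normalized counts, against 0, 7.52 and 5.48 in WT DMM (adjusted p 0.000587 in the authors' deposited table). The region from 7961941 to 7962180 had 1.64 and 7.11 normalized counts in MUT DMM and 19.1, 2.26 and 11 in WT DMM (adjusted p 0.00167 in the authors' deposited table). At 7910181, below the lower gene bound, the second and the third WT DMM libraries were above both MUT DMM libraries and the first was at 0. At 7961941 the groups overlapped, the WT DMM reads being 2, 3 and 18. The MUT DMM mean there was 7.11 without the deeper library and 1.64 without the shallower, against 10.8 in WT DMM, which was 6.61 without its near-empty library. At 7910181 it was 0.94 without the shallower library, against 4.33 in WT DMM.

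The TEAD factors had 6 of 7 regions lower. Tead1 had 3, all inside the gene. From 112873601 to 112873940, the levels were 16.9 and 14.2 normalized counts in MUT DMM and 0, 38.4 and 56.6 in WT DMM (adjusted p 0.000163 in the authors' deposited table). At 112870781 to 112871080, MUT DMM had 1.17 and 3.55 normalized counts, against 0, 3.01 and 11 in WT DMM. The region from 112769301 to 112769560 had 0.7 and 0 normalized counts in MUT DMM and 9.56, 1.5 and 4.87 in WT DMM. In the first of these the second and the third WT DMM libraries were above both MUT DMM libraries, with 0, 51 and 93 reads in WT DMM and 72 and 4 in MUT DMM. At 112870781 the second WT DMM library, with 4 reads, was below the shallower MUT DMM library, and without the third WT DMM library the means turned, with 2.36 in MUT DMM and 1.51 in WT DMM. The MUT DMM mean there was 1.17 without the shallower library, against 4.66 in WT DMM. At 112769301 the groups were apart on 3 and 0 and 1, 2 and 8 reads, and the WT DMM mean was 3.19 without the near-empty library.

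Tead3 (chromosome 17, 28331671 to 28350805) had 1 lower region and Tead4 (chromosome 6, 128227143 to 128300813) had 2 lower and 1 higher. From 28338161 to 28338520, the levels were 1.64 and 3.55 normalized counts in MUT DMM and 0, 8.27 and 10.4 in WT DMM (adjusted p 0.000284 in the authors' deposited table). At 128284661 to 128285020, MUT DMM had 16.9 and 46.2 normalized counts, against 0, 7.52 and 8.52 in WT DMM (adjusted p 0.00143 in the authors' deposited table). At this Tead4 region both MUT DMM libraries, with 72 and 13 reads, were above all WT DMM libraries, with 0, 10 and 14, and its MUT DMM mean was 16.9 without the shallower library, against 5.35 in WT DMM. The region from 128262281 to 128262600 had 3.98 and 0 normalized counts in MUT DMM and 19.1, 4.51 and 11.6 in WT DMM (adjusted p 0.00263 in the authors' deposited table). From 128238941 to 128239140, the levels were 0.94 and 3.55 normalized counts in MUT DMM and 0, 6.02 and 4.87 in WT DMM (adjusted p 0.00154 in the authors' deposited table). At 128262281 the groups were apart, and the MUT DMM mean was 3.98 without the shallower library and 0 without the deeper, against 11.7 in WT DMM. At 128238941 the near-empty library was at 0 and the MUT DMM mean was 0.94 without the shallower library, against 3.63 in WT DMM.

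**Figure D3:**
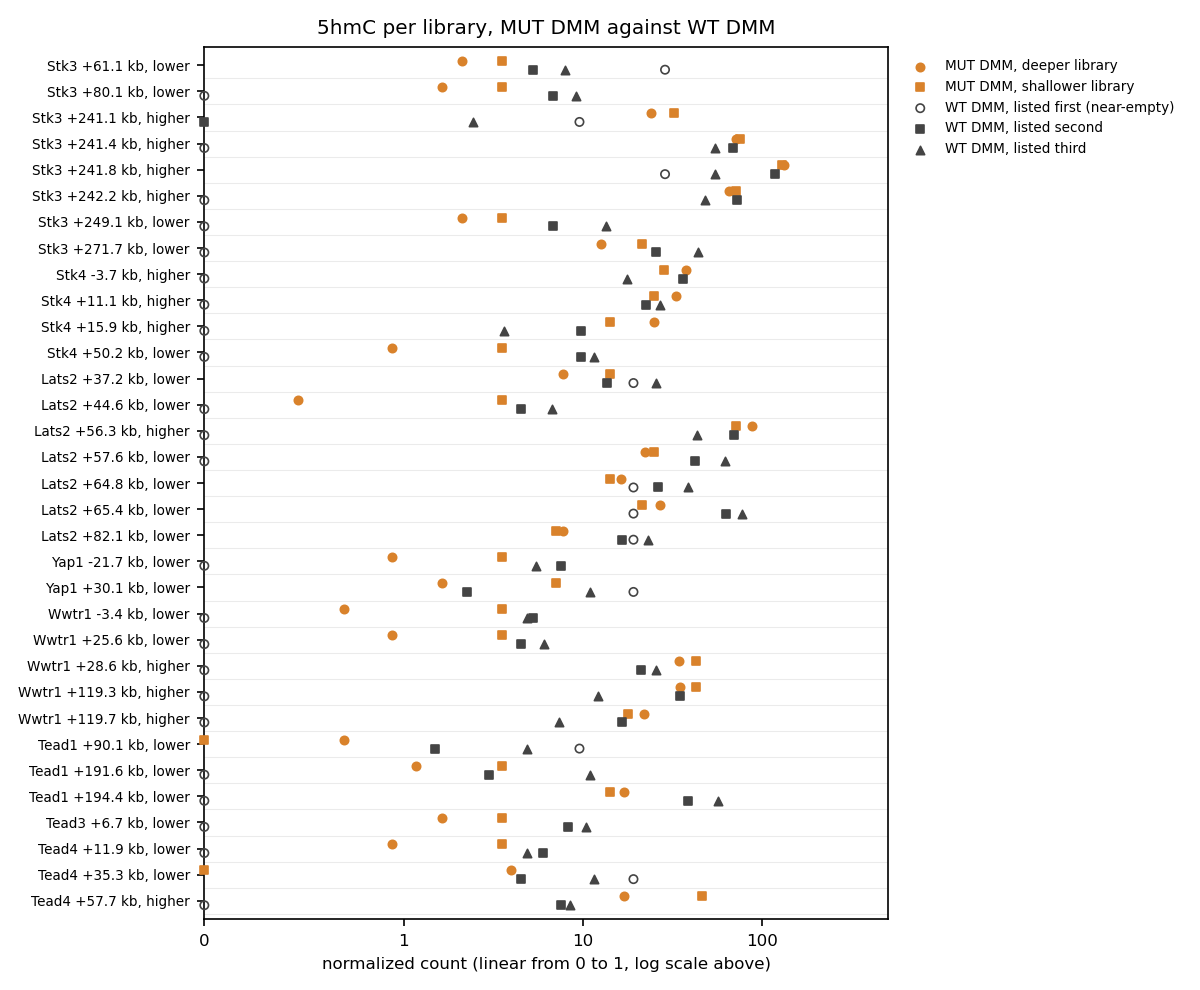
Normalized counts of each library in the 33 regions listed for MUT DMM against WT DMM, on an axis linear from 0 to 1 and logarithmic above, with rows named by gene, distance in kb from its lower-coordinate bound and direction. MUT DMM libraries, the deeper and the shallower, and the 3 WT DMM libraries have symbols of their own. The near-empty WT DMM library is at 0 in 23 of the 33 rows.

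Libraries were apart in 14 of the 33 regions (9 higher, 5 lower), beside 41.4% of all regions, or 22.9% higher and 18.5% lower. Without the near-empty library they were apart in 27 (9 higher, 18 lower), beside 77.0% of all regions, or 24.1% higher and 52.9% lower. The deeper MUT DMM library was below the second and the third WT DMM libraries in 21 of 21 lower regions and above them in 11 of 12 higher ones. This count was not made over all regions. The rows were already sorted by direction, from deposited means that hold this library as a pair of entries, so it is not particular evidence for the members. The difference of means exceeded the larger SD in 13, beside 42.4% of all regions, and 4 reached the smallest permutation p, beside 17.2%. By limma 0 of 33 passed, beside 0.00% of all regions. An unadjusted limma p under 0.05 was found in 0 of 33, beside 2869 of all 65969 regions. Without the near-empty library limma called 5 (2 higher, 3 lower), beside 15.7% of all regions, or 5.84% higher and 9.88% lower. These were Lats2 at 57754881 (adjusted p 0.000574) and 57747201 (adjusted p 0.0262), Stk3 at 35116401 (adjusted p 0.000616), Tead1 at 112873601 (adjusted p 0.00398) and Tead4 at 128284661 (adjusted p 0.0256).

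The third comparison sets mutant cartilage after DMM against wild-type sham cartilage, so genotype and surgery differ together and cannot be told apart. In MUT DMM against WT sham all 10 genes had listed regions, 48 in all. Of them 47 passed the authors' threshold, beside 99.3% of the table. The one that did not was Stk3 at 35155521, with an adjusted p of 0.0577 in the authors' deposited table. In MUT DMM 12 of the 48 (25.0%) were higher, beside 43.2% of all regions, and 35 (72.9%) were lower, beside 56.1%. Kinase genes had 6 higher and 11 lower regions, the coactivators 3 and 8, and the TEAD factors 3 and 16. The sham mean was over 50 normalized counts in 6 of the 12 higher regions called and in 2 of the 35 lower.

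The shallower MUT DMM library was at 0 in 29 of the 35 lower regions, and both MUT DMM libraries were at 0 in 10. A 0 allows up to 2.21 normalized counts in the deeper library and up to 28.3 in the shallower. In these 10 regions the sham mean was 4.49 to 7.91, above the limit of the deeper library and below that of the shallower. Over all 35 the sham mean was under 1 read of the shallower library in 15 and under 3 reads in 28. The deeper library alone was below every sham library in 34 of 35. That count too was not made over all regions, and these rows were listed as lower from deposited means that hold the deeper library as a pair of entries. The median log2 ratio of means with 1 added was -2.84 over lower members and -2.55 over all lower regions, and 1.38 and 1.23 over higher ones.

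Among the kinases, Stk3 had higher regions at the same place as against WT DMM. At 35116401 to 35116780, MUT DMM had 75.8 and 85.0 normalized counts, against 54.6, 0 and 8.6 in WT sham (adjusted p 5.19e-05 in the authors' deposited table). The bounds were identical in both tables, and the reads were 103 and 9 in MUT DMM and 103, 0 and 31 in WT sham. Both MUT DMM libraries were above all sham libraries, which ranged from 0 to 54.6, and the sham mean was 21.1, or 4.30 without its first library. The region from 35116821 to 35117200 had 319.6 and 340.1 normalized counts in MUT DMM and 133, 198 and 274 in WT sham (adjusted p 0.00129 in the authors' deposited table). From 35117301 to 35117620, the levels were 306 and 349.5 normalized counts in MUT DMM and 122, 193 and 266 in WT sham (adjusted p 0.00233 in the authors' deposited table). These had the highest levels of the member regions in this table, with every MUT DMM value above every sham value. At 35116821 the means were 329.8 ± 14.5 (SD, n = 2) in MUT DMM, against 202 ± 70.7 (n = 3) in WT sham, a 1.63-fold difference. limma gave adjusted p values of 0.119, 0.0861 and 0.0867 at these 3 regions.

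Of the other Stk3 regions, a pair was listed as higher. At 34955781 to 34956000, MUT DMM had 2.21 and 9.45 normalized counts, against 0.53, 0 and 0 in WT sham. The region from 35155521 to 35155820 had 121 and 236 normalized counts in MUT DMM and 80.6, 83.4 and 108 in WT sham. At 34955781 the reads were 3 and 1 in MUT DMM and 1, 0 and 0 in WT sham, and limma gave an adjusted p of 0.0162, its only higher call among the members. At 35155521, near the upper bound of the gene, both MUT DMM libraries were above sham, but it is the region that missed the authors' threshold. From 35138541 to 35138900, the levels were 2.95 and 0 normalized counts in MUT DMM and 79.5, 9.26 and 5.55 in WT sham (adjusted p 3.65e-05 in the authors' deposited table). At 34962281 to 34962540, MUT DMM had 0.74 and 0 normalized counts, against 6.89, 19.7 and 3.61 in WT sham. The region from 35223201 to 35223480 was at 0 in both MUT DMM libraries and at 7.42, 11.6 and 4.72 normalized counts in WT sham. These 3 were lower in every MUT DMM library. At 35138541 the first sham library had 150 reads and the sham mean was 7.41 without it, against 1.48 in MUT DMM. limma gave adjusted p values of 0.0284 at 34962281 and 0.00411 at 35223201, which lay outside the gene bounds.

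Stk4 had 4 lower regions, all inside the gene. From 164090061 to 164090340, the levels were 0.74 and 0 normalized counts in MUT DMM and 8.48, 8.10 and 10.8 in WT sham (adjusted p 3.43e-05 in the authors' deposited table). At 164098401 to 164098680, both MUT DMM libraries were at 0 normalized counts, against 4.77, 6.95 and 7.77 in WT sham. The region from 164103881 to 164104180 had 3.68 and 0 normalized counts in MUT DMM and 14.3, 15.1 and 15.0 in WT sham. Every MUT DMM value was below every sham value in these, and the shallower library was at 0 in each. From 164110861 to 164111140, MUT DMM had 0 normalized counts in both libraries and WT sham had 6.36, 12.7 and 3.88. limma adjusted p values were 0.00648, 0.00209, 0.0319 and 0.00681 in the order given. The sham libraries were nearly equal at 164103881.

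Lats1 (chromosome 10, 7681200 to 7716461), the other kinase that acts on YAP1, was listed in this table alone. At 7678641 to 7678840, both MUT DMM libraries were at 0 normalized counts, against 4.77, 5.79 and 3.61 in WT sham (adjusted p 0.00205 in the authors' deposited table). The region from 7713481 to 7713740 was at 0 in both MUT DMM libraries and at 10.6, 5.79 and 3.61 normalized counts in WT sham (adjusted p 0.00255 in the authors' deposited table). limma gave adjusted p values of 0.00203 and 0.00624. From 7680341 to 7680540, the levels were 5.15 and 18.9 normalized counts in MUT DMM and 4.77, 1.16 and 1.39 in WT sham (adjusted p 0.00286 in the authors' deposited table). That region lay 669 bases upstream of the Lats1 start, with 7 and 2 reads in MUT DMM, and its MUT DMM mean was 5.15 without the shallower library and 18.9 without the deeper, against 2.44 in sham, or 1.28 in sham without its first library.

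Lats2 had 2 lower regions and 1 higher. At 57742881 to 57743540, MUT DMM had 17.7 and 0 normalized counts, against 45.1, 41.7 and 49.4 in WT sham (adjusted p 0.00167 in the authors' deposited table). The region from 57712721 to 57712920 had 12.5 and 0 normalized counts in MUT DMM and 23.3, 27.8 and 28.0 in WT sham (adjusted p 0.00237 in the authors' deposited table). The sham libraries were close together in both, the deeper MUT DMM library was below all of them and the shallower was at 0. limma gave adjusted p values of 0.0614 and 0.0763. Without the shallower library the MUT DMM means were 17.7 and 12.5, against 45.4 and 26.4 in sham. From 57713581 to 57713820, the levels were 3.68 and 37.8 normalized counts in MUT DMM and 3.18, 5.79 and 3.33 in WT sham (adjusted p 0.00203 in the authors' deposited table). This higher call came from 4 reads of the shallower MUT DMM library, and without it the means were 3.68 in MUT DMM and 4.10 in sham, so the direction turned.

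Yap1 had 3 lower regions and 1 higher. At 8003821 to 8004100, MUT DMM had 67.0 and 123 normalized counts, against 52.0, 56.7 and 56.0 in WT sham (adjusted p 0.00076 in the authors' deposited table). That region lay 496 bases downstream of the Yap1 start, and both MUT DMM libraries were above the closely grouped sham libraries, with means of 94.9 ± 39.5 (SD, n = 2) in MUT DMM, against 54.9 ± 2.57 (n = 3) in WT sham. The region from 7989341 to 7989780 had 5.89 and 0 normalized counts in MUT DMM and 109, 9.26 and 9.99 in WT sham (adjusted p 5.38e-05 in the authors' deposited table). There the first sham library had 205 reads, and without it the sham mean was 9.63, against 2.95 in MUT DMM. From 8001401 to 8001740, MUT DMM had 0 normalized counts in both libraries and WT sham had 5.83, 5.79 and 5.83. At 8002701 to 8002940, MUT DMM had 1.47 and 0 normalized counts, against 7.42, 9.26 and 10.3 in WT sham. limma gave adjusted p values of 0.00203 and 0.0152 for these 2, in which the sham libraries were near each other.

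Wwtr1, which encodes TAZ, had 5 lower regions and 2 higher. The region from 57575181 to 57575520 had 88.4 and 75.6 normalized counts in MUT DMM and 57.8, 54.4 and 57.1 in WT sham (adjusted p 0.000596 in the authors' deposited table). It lay 390 bases downstream of that start and overlapped the region that was also higher against WT DMM. The means were 82.0 ± 9.04 (SD, n = 2) in MUT DMM, against 56.5 ± 1.80 (n = 3) in WT sham, with 120 and 8 reads in MUT DMM. From 57568321 to 57568600, the levels were 2.95 and 18.9 normalized counts in MUT DMM and 0, 1.16 and 1.94 in WT sham. There the MUT DMM mean was 2.95 without the shallower library, whose level was 2 reads, against 1.03 in sham. At 57509341 to 57509720, MUT DMM had 2.95 and 0 normalized counts, against 54.6, 9.26 and 4.72 in WT sham (adjusted p 0.000206 in the authors' deposited table). The region from 57542041 to 57542300 had 0.74 and 0 normalized counts in MUT DMM and 6.89, 10.4 and 9.99 in WT sham. From 57555001 to 57555240, the levels were 2.21 and 0 normalized counts in MUT DMM and 7.95, 11.6 and 11.7 in WT sham. At 57509341 the first sham library again stood apart, and the sham mean was 6.99 without it, against 1.48 in MUT DMM. At 57558141 to 57558460, both MUT DMM libraries were at 0 normalized counts, against 4.24, 8.10 and 8.88 in WT sham. The region from 57565861 to 57566100 had 2.95 and 0 normalized counts in MUT DMM and 9.54, 10.4 and 11.7 in WT sham. In all 5 every MUT DMM value was below every sham value. limma passed 4 of them, with adjusted p values of 0.0067 at 57542041, 0.0249 at 57555001, 0.00328 at 57558141 and 0.0356 at 57565861.

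Tead1 had 9 lower regions and 2 higher, the most of any member. From 112904381 to 112904620, the levels were 81.7 and 161 normalized counts in MUT DMM and 68.9, 62.5 and 65.5 in WT sham (adjusted p 0.000473 in the authors' deposited table). At 112781161 to 112781420, MUT DMM had 115 and 161 normalized counts, against 97.6, 89.1 and 85.7 in WT sham. In both, each MUT DMM library was above the closely grouped sham libraries, on 17 reads in the shallower one. The region from 112843821 to 112844200 was at 0 in both MUT DMM libraries and at 7.95, 9.26 and 5.27 normalized counts in WT sham (adjusted p 0.000477 in the authors' deposited table). From 112676661 to 112676940, MUT DMM had 0 normalized counts in both libraries and WT sham had 5.30, 8.10 and 5.27. At 112721941 to 112722180, both MUT DMM libraries were at 0 normalized counts, against 5.83, 3.47 and 4.16 in WT sham. limma gave these 3, all below every sham library, adjusted p values of 0.00228, 0.00204 and 0.00203. The region from 112811361 to 112811720 had 1.47 and 0 normalized counts in MUT DMM and 8.48, 23.2 and 11.9 in WT sham. From 112914361 to 112914640, the levels were 0.74 and 0 normalized counts in MUT DMM and 6.36, 10.4 and 9.71 in WT sham. At 112823081 to 112823280, MUT DMM had 0.74 and 0 normalized counts, against 4.24, 23.2 and 3.05 in WT sham. These rested on 1 or 2 reads of the deeper library, and limma passed the first 2, with adjusted p values of 0.0165 and 0.00698, but not 112823081 (adjusted p 0.0523). There the second sham library, with 20 reads, carried the level, and the sham mean was 3.65 without it.

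The other 3 lower Tead1 regions had reads in both MUT DMM libraries. The region from 112727741 to 112728120 had 14.7 and 9.45 normalized counts in MUT DMM and 30.2, 26.6 and 33.6 in WT sham. From 112728141 to 112728380, the levels were 15.5 and 9.45 normalized counts in MUT DMM and 29.2, 28.9 and 33.3 in WT sham. These lay next to each other, with means of 12.1 ± 3.73 and 12.5 ± 4.25 (SD, n = 2) in MUT DMM and 30.1 ± 3.47 and 30.5 ± 2.45 (n = 3) in WT sham. Both differences were larger than the SDs and just missed limma's threshold, with adjusted p values of 0.0512 and 0.0527. At 112738421 to 112738640, MUT DMM had 5.89 and 18.9 normalized counts, against 20.2, 38.2 and 4.16 in WT sham. That one overlapped between the groups, and without the second sham library it turned, with 12.4 in MUT DMM and 12.2 in WT sham. Without the shallower MUT DMM library its MUT DMM mean was 5.89.

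Tead2 (chromosome 7, 45215792 to 45233468) was listed once in the 3 tables. The region from 45213961 to 45214240 had 8.10 and 0 normalized counts in MUT DMM and 16.4, 28.9 and 28.6 in WT sham (adjusted p 0.0074 in the authors' deposited table). The region lay 1552 bases upstream of the Tead2 start, every MUT DMM value was below every sham value, and limma gave an adjusted p of 0.0539. Without the shallower library the MUT DMM mean was 8.10, against 24.7 in sham.

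Tead3 had 4 regions, all lower. From 28347361 to 28347820, the levels were 95.7 and 18.9 normalized counts in MUT DMM and 131, 133 and 120.4 in WT sham (adjusted p 0.000515 in the authors' deposited table). Of the members' lower regions in this comparison it had the highest level, with 130 and 2 reads in MUT DMM and 247, 115 and 434 in WT sham, and without the shallower library the MUT DMM mean was 95.7, against 128.2 in sham. At 28338281 to 28338480, MUT DMM had 4.42 and 9.45 normalized counts, against 13.8, 12.7 and 20.0 in WT sham (adjusted p 0.00211 in the authors' deposited table). The region from 28331761 to 28332040 had 0.74 and 0 normalized counts in MUT DMM and 4.24, 19.7 and 7.77 in WT sham. From 28345241 to 28345460, the levels were 2.21 and 0 normalized counts in MUT DMM and 5.30, 16.2 and 21.4 in WT sham. All 4 had every MUT DMM value below every sham value. limma passed those at 28331761 (adjusted p 0.0219) and 28345241 (adjusted p 0.0375), and gave 0.0896 at 28347361 and 0.136 at 28338281. The sham mean at 28331761 was 6.01 without the second sham library, against 0.37 in MUT DMM.

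Tead4 had 2 lower regions and 1 higher. At 128297061 to 128297300, MUT DMM had 61.9 and 18.9 normalized counts, against 74.8, 84.5 and 89.3 in WT sham (adjusted p 0.00284 in the authors' deposited table). The region from 128274201 to 128274400 had 0.74 and 0 normalized counts in MUT DMM and 6.89, 4.63 and 6.10 in WT sham (adjusted p 0.00238 in the authors' deposited table). In both, the MUT DMM libraries were below all sham libraries, and limma passed the one at 128274201 (adjusted p 0.00699) and gave 0.0879 at 128297061. At 128297061 the MUT DMM mean was 61.9 without the shallower library, whose level was 2 reads, against 82.9 in sham. From 128267041 to 128267340, the levels were 4.42 and 18.9 normalized counts in MUT DMM and 0, 2.32 and 2.50 in WT sham (adjusted p 0.000962 in the authors' deposited table). That region was higher in both MUT DMM libraries, and its MUT DMM mean was 4.42 without the shallower, against 1.61 in sham.

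**Figure D4:**
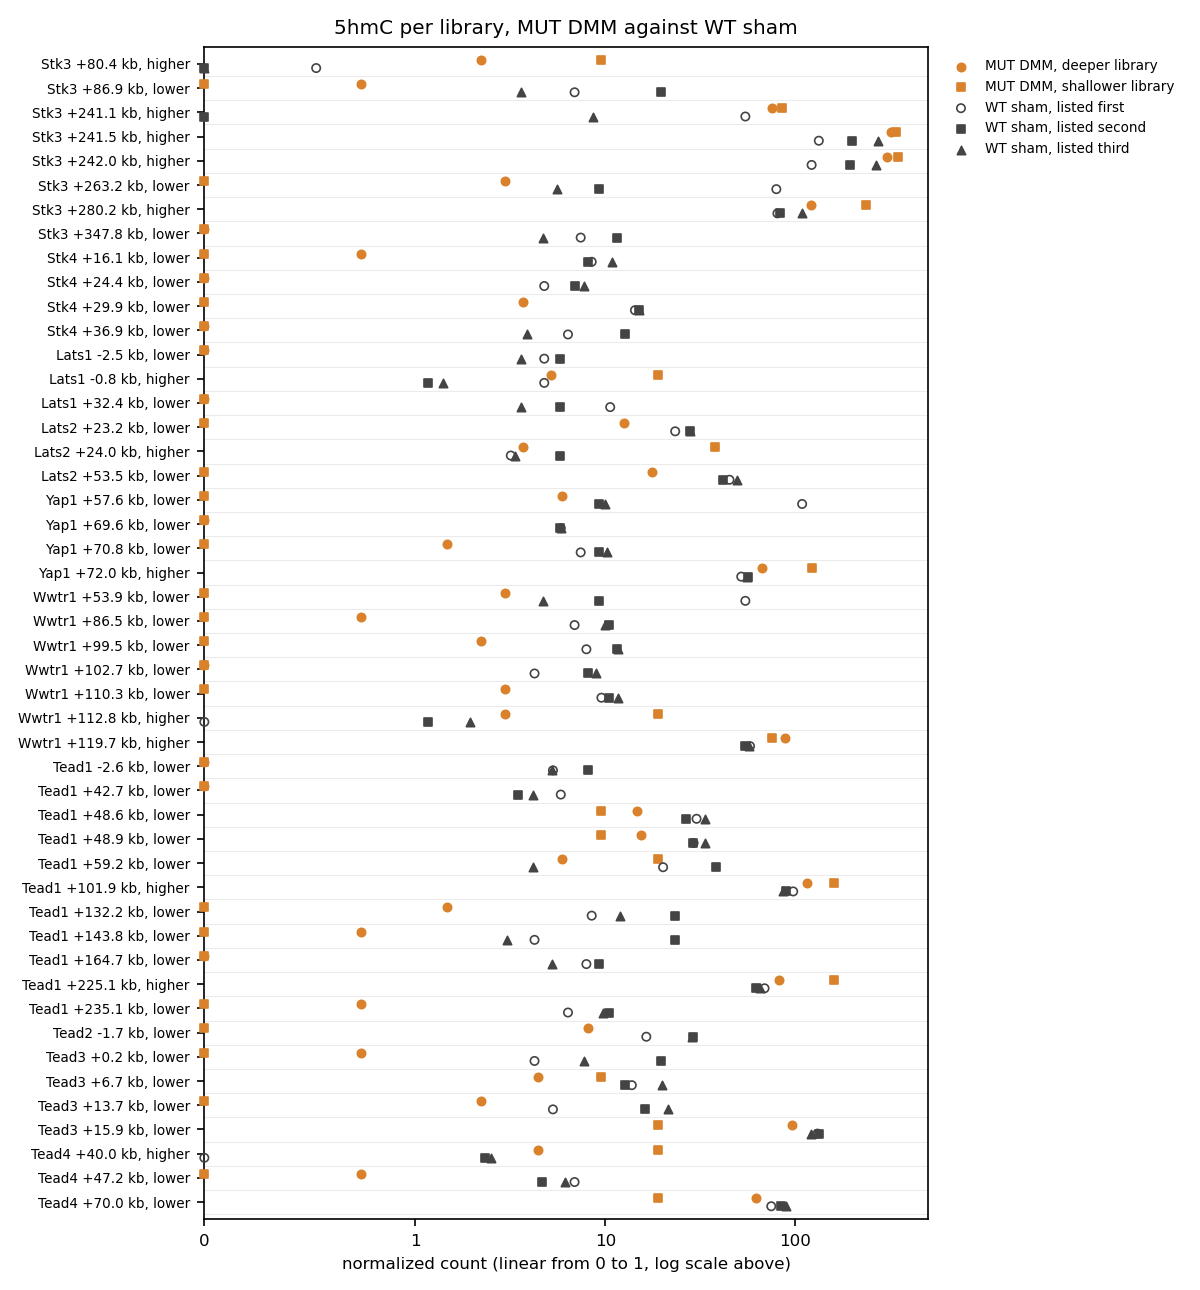
Normalized counts of each library in the 48 regions listed for MUT DMM against WT sham, on an axis linear from 0 to 1 and logarithmic above, with rows named by gene, distance in kb from its lower-coordinate bound and direction. Orange symbols are the deeper and the shallower MUT DMM library, dark symbols the 3 WT sham libraries. In 10 rows both orange symbols are at 0.

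Of the 48 listed regions, 45 were called and had libraries apart (11 higher, 34 lower), beside 81.6% of all regions, or 32.5% higher and 49.1% lower. The difference of means exceeded the larger SD in 38 of the 48 listed, beside 72.8% of all regions, and 31 reached the smallest permutation p, beside 65.6%. By limma 23 of 48 passed (1 higher, 22 lower), beside 47.2% of all regions, or 8.19% higher and 39.0% lower. They were 9 of 18 at kinase genes, 6 of 11 at coactivator genes and 8 of 19 at TEAD genes. In 10 of the 23 both MUT DMM libraries were at 0, and 0 of the 9 regions with a sham mean over 50 passed. Neither count was made over all regions, so they are not particular evidence for the members. Among regions with a mean of 5 or more over all libraries, limma passed 3 of 35 members, beside 6.92% of all such regions. Leaving out 1 library moved the ratio of means, with 1 added, by over 1.5 times in 19 regions for the deeper MUT DMM library, 18 for the shallower, 5 for the first sham library and 4 for the second.

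**Figure D5:**
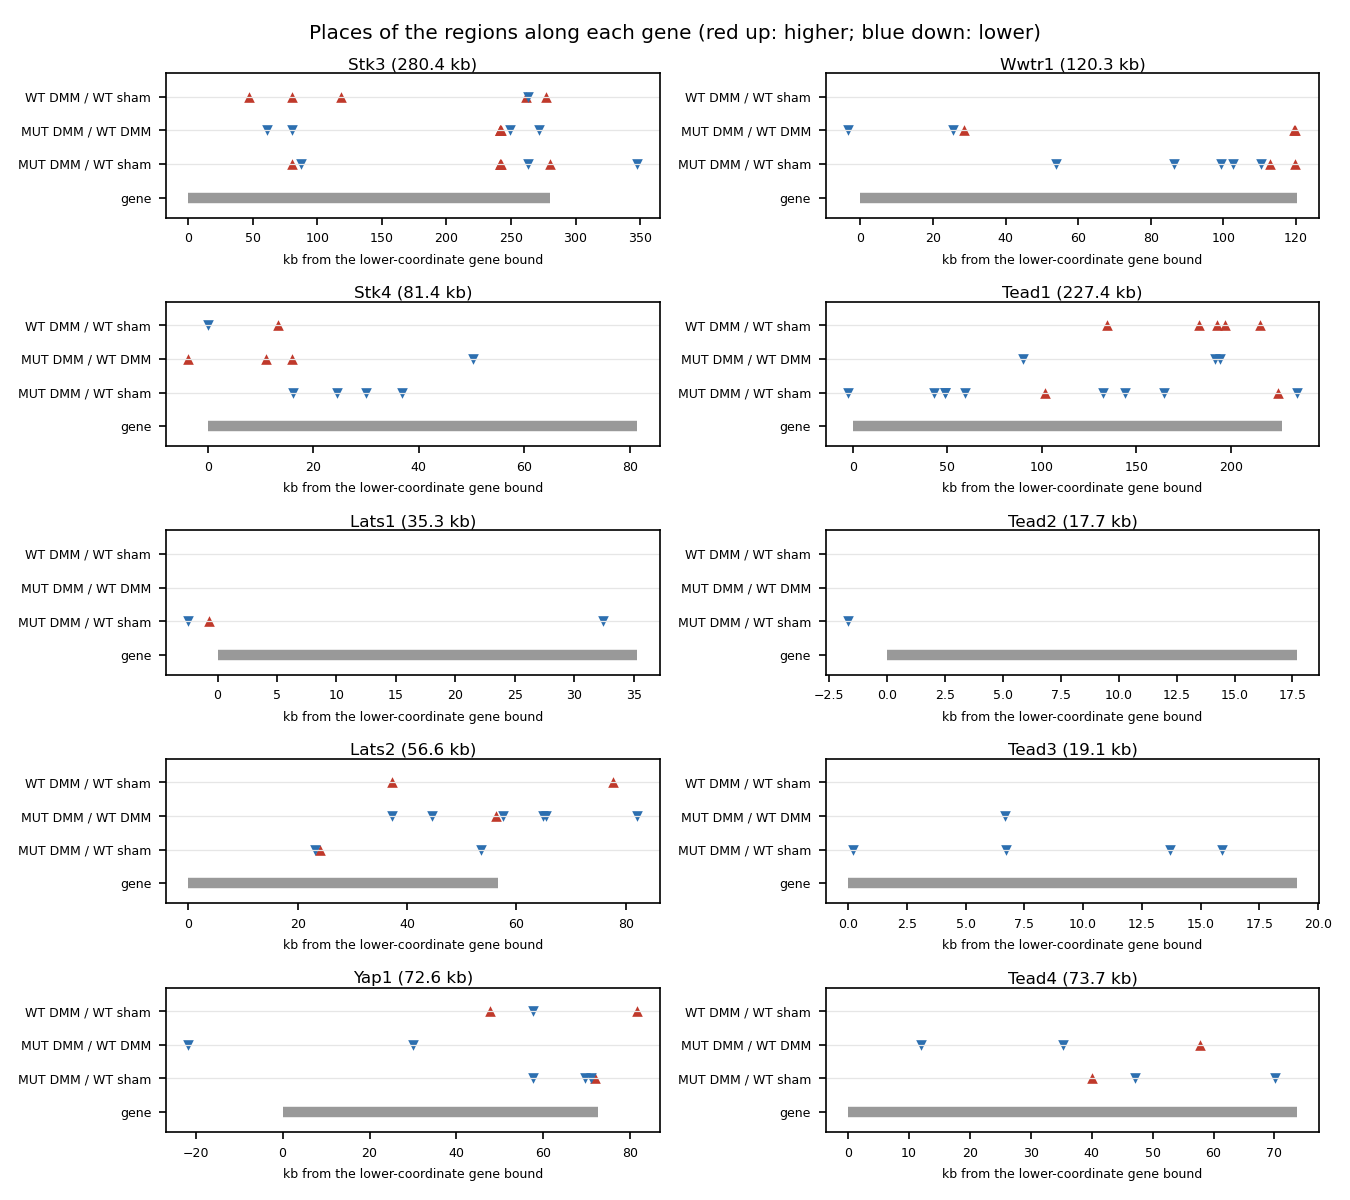
Places of the listed regions along each gene, in kb from the gene's lower-coordinate bound, with 1 line per comparison and the RefSeq gene bounds as a grey bar. Red triangles pointing up are regions higher in the first-named group and blue ones pointing down are lower. Toward the upper bound of Stk3, regions higher in MUT DMM lie together in both comparisons that include MUT DMM.

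Some places were listed in more than 1 table. The comparisons share libraries, so a shared place is not independent evidence, and levels are set side by side only within a table. The Lats2 region from 57726781 was higher in WT DMM than in WT sham (33.0 ± 9.97 against 13.8 ± 4.26, SD, n = 3 each) and lower in MUT DMM than in WT DMM (11 ± 4.60, n = 2, against 19.4 ± 6.02, n = 3, from 57726701). The groups were apart against sham and overlapped against WT DMM. Stk3 at 34955381 was likewise higher in WT DMM than in sham, and at 34955521 lower in MUT DMM than in WT DMM, with the near-empty library at 0 in both tables. Stk3 around 35116401 to 35117880 and Wwtr1 at 57575261 were higher in MUT DMM against both groups. Tead3 at 28338161 was lower in MUT DMM than in WT DMM, and the overlapping region at 28338281 lower than in WT sham. Stk3 at 35138541 and Yap1 at 7989501 were lower than sham in WT DMM and also in MUT DMM, and in each of these the first sham library held most of the sham reads. Stk4 gave opposite directions at regions sharing 80 bases, higher in MUT DMM than in WT DMM at 164089901 and lower than in WT sham at 164090061.

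Genes around the core pathway were counted in the same way, with the same shares of all regions as background. The 30 genes of upstream regulators and partners had 60 higher and 8 lower called regions in WT DMM against WT sham, 39 and 54 in MUT DMM against WT DMM, and 36 and 70 in MUT DMM against WT sham. The 10 target genes of YAP1 and TEAD factors had 14 and 0, 6 and 16, and 7 and 21. These splits lay on the same side as those of the whole tables in each comparison.

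In WT DMM against WT sham, 15 genes of these lists had 3 or more called regions. Of all regions there, 93.2% were called higher and 6.53% lower, so regions that are all higher are usual for a gene. Regions in 1 direction, all higher, were found at Wwc2 (7), Frmd6 (4), Taok1 (4), Map4k4 (4), Fat4 (4), Ptpn14 (3), Vgll2 (5), Btrc (5), Ankrd1 (3), Tgfb2 (5) and Crim1 (4). Among these, Wwc2 belongs to the KIBRA family of LATS activators, Taok1 is a kinase that acts on STK3 and STK4, Fat4 is an atypical cadherin, and Btrc is a ubiquitin ligase subunit that acts on YAP1. The other 4, with regions in both directions, were Wwc1, Taok3, Vgll4 and Tjp1. Vgll2, on chromosome 10 from 51991421 to 51991720, had 0, 12 and 17.7 normalized counts in WT DMM and 3.84, 2.15 and 1.54 in WT sham (adjusted p 0.000264 in the authors' deposited table). Mob1b, on chromosome 5 from 88721201 to 88721400, had 0, 78.7 and 28.1 normalized counts in WT DMM and 64.4, 57.9 and 62.0 in WT sham (adjusted p 0.00117 in the authors' deposited table). Ccn1, on chromosome 3 from 145643801 to 145644080, had 0, 6.67 and 18.7 normalized counts in WT DMM and 2.56, 3.58 and 1.54 in WT sham (adjusted p 0.000264 in the authors' deposited table). Vgll2 is a TEAD cofactor, Mob1b a LATS coactivator and Ccn1 a matrix protein gene that YAP1 induces, and in all 3 the near-empty library was at 0 and the groups overlapped.

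In MUT DMM against WT DMM, 21 genes had 3 or more called regions, where 34.2% of all regions were called higher and 64.7% lower. All were higher at Ajuba (3), a LIM protein gene whose product restrains LATS kinases, and all were lower at Taok1 (3) and Btrc (3). Both directions occurred at 18 genes, of which those with 7 or more regions were Wwc1 (2 higher, 7 lower), Wwc2 (3 higher, 4 lower), Taok3 (3 higher, 4 lower), Tjp1 (2 higher, 5 lower), Tgfb2 (2 higher, 5 lower) and Crim1 (1 higher, 6 lower). The rest were Sav1, Frmd6, Map4k4, Fat4, Fjx1, Wtip, Ptpn14, Stk38l, Vgll2, Vgll3, Vgll4 and Ankrd1. Tjp1 encodes a tight junction protein, and Wwc1 encodes KIBRA. Wwc2, on chromosome 8 from 47991061 to 47991360, had 33.0 and 32.0 normalized counts in MUT DMM and 19.1, 18.1 and 11 in WT DMM (adjusted p 1.34e-05 in the authors' deposited table). Nf2, on chromosome 11 from 4836881 to 4837260, had 0.47 and 3.55 normalized counts in MUT DMM and 0, 3.01 and 16.4 in WT DMM (adjusted p 1.12e-05 in the authors' deposited table). Birc5, on chromosome 11 from 117849221 to 117849600, had 43.8 and 49.8 normalized counts in MUT DMM and 28.7, 30.8 and 15.2 in WT DMM (adjusted p 1.35e-05 in the authors' deposited table). The groups were apart at Wwc2 and at Birc5, a survival gene, and overlapped at Nf2, which encodes the LATS-activating protein merlin. Crim1, on chromosome 17 from 78372821 to 78373100, had 12.4 and 7.11 normalized counts in MUT DMM and 0, 40.6 and 55.4 in WT DMM (adjusted p 2.23e-05 in the authors' deposited table). At Crim1, a target gene, the near-empty WT DMM library was at 0 and the others were above MUT DMM.

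In MUT DMM against WT sham, 23 genes had 3 or more called regions, where 43.2% of all regions were called higher and 56.1% lower. All were lower at Frmd6 (5), Map4k4 (6), Limd1 (3) and Ankrd1 (4), of which Map4k4 is a kinase that acts on LATS beside STK3 and STK4, and Limd1 a LIM protein. Both directions occurred at 19 genes, of which those with 7 or more regions were Nf2 (2 higher, 5 lower), Taok3 (3 higher, 10 lower), Vgll4 (2 higher, 5 lower), Tjp1 (4 higher, 5 lower) and Tgfb2 (4 higher, 6 lower). The rest were Mob1b, Wwc1, Wwc2, Taok1, Fat4, Fjx1, Ajuba, Amotl2, Ptpn14, Vgll2, Vgll3, Btrc, Nuak2 and Crim1. Vgll4, on chromosome 6 from 114969721 to 114970100, had 83.9 and 75.6 normalized counts in MUT DMM and 38.2, 53.3 and 40.5 in WT sham (adjusted p 7.52e-07 in the authors' deposited table). Ptpn14, on chromosome 1 from 189803421 to 189803720, had 93.5 and 75.6 normalized counts in MUT DMM and 126, 135 and 130.4 in WT sham (adjusted p 5.74e-06 in the authors' deposited table). Tgfb2, on chromosome 1 from 186703881 to 186704260, had 50.1 and 94.5 normalized counts in MUT DMM and 36.1, 26.6 and 32.7 in WT sham (adjusted p 0.00044 in the authors' deposited table). Vgll4 is a TEAD cofactor that competes with YAP1, Ptpn14 a phosphatase that holds YAP1 back and Tgfb2 a growth factor gene. The groups were apart at all of these, but the shallower MUT DMM library rested on few reads, each worth 9.45 normalized counts. The MUT DMM libraries were spread at Tgfb2, with a mean of 72.3 and an SD of 31.4 (n = 2). Ankrd1, on chromosome 19 from 36109641 to 36109920, had 0.74 and 0 normalized counts in MUT DMM and 56.7, 4.63 and 3.33 in WT sham (adjusted p 2.03e-05 in the authors' deposited table). At Ankrd1, a standard target gene of YAP1, the first sham library stood apart from the others.

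The labelled tissue could not be checked from these tables, which list changed 5hmC regions and not expression. The regions of marker genes are given as higher and lower called ones. In WT DMM against WT sham they were 2 and 1 at the 6 cartilage markers (Acan, Col2a1, Sox9, Col9a1, Comp and Prg4), 10 and 3 at the 3 endothelial markers (Pecam1, Cdh5 and Kdr) and 5 and 0 at the 2 blood markers (Ptprc and Ly6g). The 3 muscle markers (Myh1, Ckm and Acta1) had 0 and 1, the 3 bone markers (Bglap, Ibsp and Sp7) 1 and 0, and the 3 adipocyte markers (Adipoq, Plin1 and Pparg) 3 and 0. Cartilage markers had 5 and 7 in MUT DMM against WT DMM, endothelial 4 and 16, blood 0 and 2, muscle 3 and 0, bone 1 and 0, and adipocyte 0 and 5. Cartilage markers had 7 and 5 in MUT DMM against WT sham, endothelial 5 and 22, blood 4 and 2, muscle 0 and 1, bone 0 and 2, and adipocyte 3 and 2. Of all regions, 93.2% were called higher in WT DMM against WT sham. Called lower were 64.7% in MUT DMM against WT DMM and 56.1% in MUT DMM against WT sham. More lower than higher regions at endothelial markers in the last 2 comparisons thus went with the majority of all regions. Muscle and bone markers went the other way against WT DMM, as did cartilage, blood and adipocyte markers against WT sham. The part of these cell types in the results was not tested.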

How the data were processed

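5hmC was read at CCGG sites in knee cartilage DNA, and 3 tables of changed regions were used. The tools named in the submitters' processing notes are HISAT2 2.1.0, bedtools, SAMtools, bcl2fastq 2.20.0 and Trim Galore 0.5.0, with the build mm10. The sources used here do not give the region caller or its test. Deposited cells hold normalized counts, 3 per group, and the signal columns hold the authors' group means of them. The p-values and adjusted p-values of regions and windows are those of the authors' deposited tables, and the best-window adjusted p served as an alternative. Deposited log ratios were not used.

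Means, SDs and ratios were recomputed from the library values, with identical entries counted once. Whole reads were recovered from the steps of the values, which gave whole numbers (within 0.02) for at least 99.9955% of values in every library. No count test was run, since the tables are joined, normalized and selected by p. Own tests used limma 3.58.1 (R 4.3.3, trend) on log2(normalized count + 1) over each whole table, with Benjamini-Hochberg adjustment, and were tested on simulated data. Because the rows were selected by p, limma's p-values describe the spread among listed regions. Labels do not say whether libraries came from separate mice, so the spread may be technical. Called means an adjusted p under 0.05 in the authors' deposited table. Gene names and starts came from RefSeq GRCm38.p6.

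Members and gene lists were chosen with earlier results of these data known. The members' regions were all given, and other pathway genes were named with 3 or more called regions or the smallest p in a direction. Some genes of the wider lists are not reported here and are in none of the counts of those lists.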

Additional observations from a re-analysis of the deposited data

How the results depend on the processing

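Counts of called member regions stayed within 1.5 times of the values given under the authors' adjusted p under 0.01, the best window's adjusted p, RefSeq bounds with and without 5 kb added, and each deposited entry counted as a library, and limma's counts did so with 0.5 or 5 added in place of 1. With a mean of 5 or more required, WT DMM against WT sham kept 11 called regions, 8 of them higher, and limma passed 3 in MUT DMM against WT sham. With a difference of 2-fold or more required, MUT DMM against WT DMM had 18 called regions, 7 higher, and MUT DMM against WT sham had 6 higher. Without the library with the fewest reads, limma passed 13 in WT DMM against WT sham and 5 in MUT DMM against WT DMM. Leaving out 1 library at a time, limma passed 0 to 13, 0 to 5 and 17 to 37 in the 3 comparisons in the order of the text, while it passed 0.0161% to 77.8%, 0.00% to 15.7% and 28.5% to 69.9% of all regions. Groups were apart in 2 to 15, 14 to 27 and 45 to 46 regions. The top of each range in the first 2 comparisons is without the near-empty WT DMM library. The 37 is without the deeper MUT DMM library, which leaves a single MUT DMM library assumed to vary like the sham libraries.

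The direction of means turned in 11 regions, 4 of 18, 5 of 33 and 2 of 48. In WT DMM minus WT sham the difference of means was lowest without the third WT DMM library and highest without the near-empty one, from -0.71 to 11.3 normalized counts at Stk3 34922681, -0.89 to 7.45 at Stk3 35136601, -1.42 to 9.52 at Tead1 112871801 and -0.38 to 6.39 at Tead1 112894901. In MUT DMM minus WT DMM it was lowest without the near-empty library and highest without the third WT DMM library, from -28.6 to 2.50 at Lats2 57747201, -17.7 to 4.20 at Stk3 35147041 and -4.63 to 0.86 at Tead1 112870781. Wwtr1 57452101 ran from -2.95 to 0.17 and Wwtr1 57481161 from -3.06 to 0.017, the highest without the deeper MUT DMM library. In MUT DMM minus WT sham, Lats2 57713581 ran from -0.42 without the shallower MUT DMM library to 33.7 without the deeper, and Tead1 112738421 from -16.8 without the third sham library to 0.24 without the second. The cause was not tested. No paired analysis was possible because the columns carry no replicate numbers.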
